A study of Rattus norvegicus with 2 samples.

Results

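Acetylation of lysine 27 on histone H3 (H3K27ac) was mapped by chromatin immunoprecipitation and sequencing (ChIP-seq) in sciatic nerve of Sprague Dawley rats at postnatal day 15, in 1 immunoprecipitated library and 1 input library. The regions described here are paired peaks, that is, stitched domains of exactly 2 H3K27ac peaks. Peaks on the numbered chromosomes were sorted by start and joined wherever the distance from the end of one to the start of the next was 12.5 kb or less, and a domain was kept where both of its peaks were longer than 500 bp and shorter than 10 kb. This gave 2250 pairs among 18208 stitched domains on the 20 numbered chromosomes (12.4%, exact 95% binomial interval 11.9 to 12.8). The pairs were chosen by the lengths and spacing of their peaks, so the gap, the lengths and the 2-peak form are given as descriptions of this list, without a test.

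Nerves from several animals were combined before fixation, so the list describes the pooled tissue and holds no measure of the spread between animals. The file lists positions only, with no peak height, no gene names and no counts, and the depth is unknown. Genes at the pairs were therefore not analysed here, and the tissue label could not be set against marker genes. All intervals below are at 95%, exact binomial (Clopper-Pearson) for shares and from binomial order statistics for medians. They cover counting error over regions of 1 library only, and take the regions as independent.

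H3K27ac is laid down by the acetyltransferases p300 and CBP on nucleosomes at active promoters and enhancers. An active gene often has acetylated chromatin at its promoter and at nearby enhancers, and groups of closely spaced enhancers can be marked as separate peaks within one neighbourhood. In peripheral nerve the mark has been used to find enhancers of Schwann cells, the glia that wrap axons in myelin, although the nerve also holds fibroblasts, vessels and immune cells. A pair of peaks can thus belong to 1 gene or to 2, and the coordinates alone do not say which.

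The pairs held 4500 peaks, 14.0% of the 32205 peaks on the numbered chromosomes (13.6 to 14.4), and 10.08 Mb of covered sequence, 13.9% of the covered length there. In a typical pair, 2 peaks of unequal length stood a few kilobases apart. The longer peak had a median length of 2507 bp (interval 2439 to 2571, quartiles 1680 and 3741) and the shorter one 1235 bp (1209 to 1282, quartiles 824 and 1888). The gap between them had a median of 4664 bp (4430 to 4878). The pair spanned 9398 bp at the median, of which 47.1% was covered by the peaks (46.0 to 48.6).

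The pairs with the most acetylated sequence show how different this form can be. Coordinates are those of the deposited list, with 1 added to each start. The first by covered length lay on chromosome 6 from 22314561 to 22332948. Its left peak was 8983 bp long and its right peak 8782 bp, with a gap of only 623 bp between them, so that 96.6% of the span was covered. The second, on chromosome 13 from 74032864 to 74051399, had peaks of 6007 and 9900 bp with a gap of 2629 bp. The third, on chromosome 7 from 24440874 to 24466853, had peaks of 9901 and 5382 bp that stood 10697 bp apart. These 3 pairs covered 17.8, 15.9 and 15.3 kb, and the peaks took up 96.6, 85.8 and 58.8% of the span.

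The next 4 pairs by covered length were 2 on chromosome 3, 1 on chromosome 19 and 1 on chromosome 10. The pair on chromosome 3 from 154210449 to 154229163 had peaks of 5825 and 9244 bp and a gap of 3646 bp. On chromosome 19, from 66759305 to 66780100, the peaks were 6620 and 8329 bp long and 5847 bp apart. The other pair on chromosome 3, from 107685860 to 107701270, had peaks of 5020 and 9813 bp only 578 bp apart. Both pairs of chromosome 3 had a right peak over 9 kb, but one gap was several times the other. On chromosome 10, from 16667755 to 16685644, peaks of 8512 and 6185 bp stood 3193 bp apart.

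The remaining 3 were on chromosomes 18, 5 and 6. Chromosome 18 held peaks of 6939 and 7120 bp with a gap of 987 bp, from 76414280 to 76429325. Chromosome 5 held peaks of 9710 and 4333 bp with a gap of 893 bp, from 144368589 to 144383524. The last, on chromosome 6 from 35419881 to 35445697, had peaks of 5072 and 8956 bp and a gap of 11789 bp, the widest of the 10. Among the 10, the left peak was the longer one in 4, and the ratio of the shorter to the longer peak ran from 0.446 to 0.978.

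**Figure D1:**
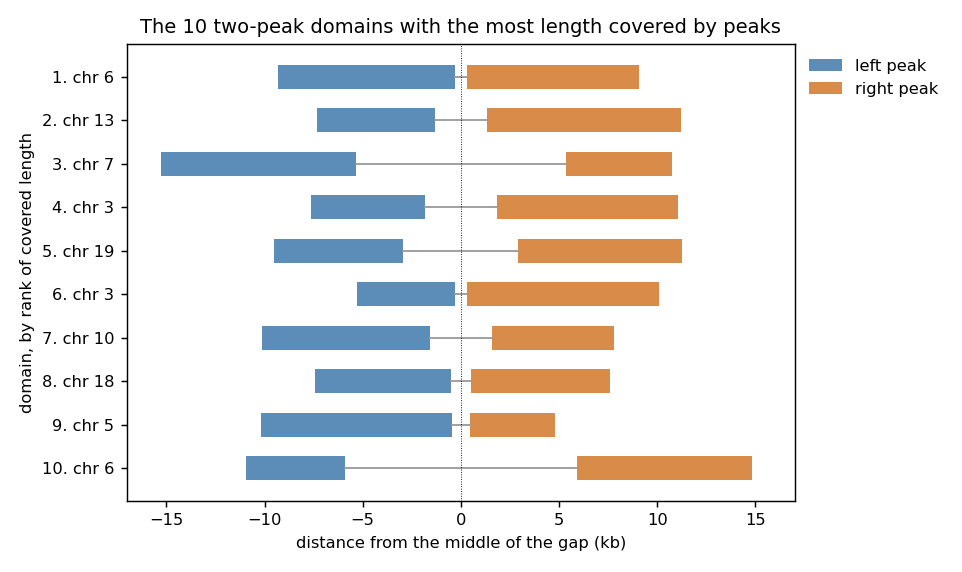
The 10 pairs with the most length covered by peaks, drawn to scale around the middle of their gap (distance in kb, 1 row per pair in rank order, labelled by chromosome). Boxes are the left and right peaks and the thin line is the gap, which runs from 578 bp (rank 6) to 11789 bp (rank 10).

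The gap is the first of the measures that describe a pair. Gaps ran from 501 to 12489 bp, with quartiles at 2061 and 7777 bp and a mean of 5183 bp ± 3499 (SD over 2250 pairs). Close pairs were the most frequent class. In classes 1 kb wide, 434 pairs (19.3%) had a gap from 500 to 1500 bp and 228 (10.1%) one from 1500 to 2500 bp. Counts then declined slowly, through 199 pairs from 4500 to 5500 bp and 133 from 7500 to 8500 bp. They stood between 105 and 127 in each of the last 3 classes, from 9500 bp up to the stitching distance. There was no second mode as high as the first.

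Within the first class the pairs crowded toward the shortest gaps. In steps of 100 bp, 74 pairs had a gap from 500 to 600 bp and 68 one from 600 to 700 bp, against 32 from 1400 to 1500 bp and 26 from 2000 to 2100 bp. No pair had a gap under 500 bp, so the count starts at what looks like the smallest distance at which the list keeps 2 such peaks apart. What the caller joined below that distance cannot be read from the file. The 3 shortest gaps were 501, 501 and 502 bp. They belonged to peaks of 3422 and 1526 bp on chromosome 4 (180859776 to 180865224), peaks of 1087 and 5525 bp on chromosome 14 (35572973 to 35580085) and peaks of 4775 and 660 bp on the same chromosome (42641608 to 42647544).

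At the other end, 300 pairs (13.3%, 12.0 to 14.8) had a gap of 10 kb or more. The 3 widest gaps were 12489 bp on chromosome 5 (118371993 to 118389218), 12480 bp on chromosome 2 (259339472 to 259353912) and 12476 bp on chromosome 1 (169932499 to 169948481). The peaks of these 3 pairs were 2244 and 2493 bp, 859 and 1102 bp, and 1579 and 1928 bp long. On either side of the stitching distance the numbers were alike: 69 pairs had a gap within 500 bp below it, and 61 pairs of neighbouring single peaks under the same length limits had one within 500 bp above it. The first of those single peaks were 12507 bp apart.

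Relative to the peaks themselves, the gap was mostly the larger part. It exceeded the longer peak in 66.8% of pairs (64.8 to 68.7) and the summed length of both peaks in 54.3% (52.2 to 56.3). It was shorter than the shorter peak in 405 pairs, or 18.0% (16.4 to 19.7). The pair of chromosome 6 that leads by covered length is of this last kind.

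Gap and peak length were nearly unrelated over most of the range. Spearman's rank correlation of the gap and the covered length was -0.06 over the 2250 pairs. Pairs that covered 2 to 4 kb had a median gap of 4971 bp (4628 to 5460, n = 951), and those that covered 6 to 10 kb one of 4193 bp (3801 to 4689, n = 391). The 84 pairs that covered over 10 kb had a median gap of 2584 bp (1826 to 3646), whose interval lay below those of the 3 classes from 2 to 4, 4 to 6 and 6 to 10 kb and overlapped that of pairs under 2 kb (3600 to 5484). Gap and length are measured from the same peak edges, so they are not independent of each other.

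**Figure D2:**
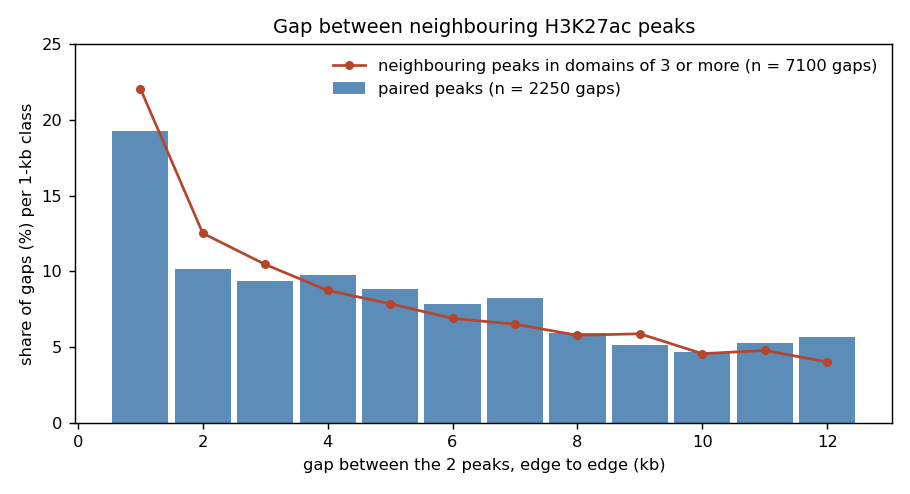
Share of gaps (%) in classes of 1 kb, from 500 bp to the stitching distance, for the 2250 pairs (bars) and for 7100 neighbouring peaks under the same length limits in domains of 3 or more peaks (points joined by a line). The first class is the highest in both, 19.3% of pairs and 22.1% of the neighbours in larger domains.

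Balance, the length of the shorter peak divided by that of the longer, is the other measure. A value of 1 stands for equal lengths, and 0.5 means that one peak is 2 times as long as the other. The median balance was 0.575 (0.560 to 0.590), with quartiles at 0.376 and 0.787. In 896 pairs (39.8%, 37.8 to 41.9) the balance was under 0.5, in 131 (5.82%) under 0.2 and in 15 under 0.1. At the other end, 521 pairs (23.2%, 21.4 to 24.96) had a balance of 0.8 or more and 237 (10.53%) of 0.9 or more. No pair had 2 peaks of exactly equal length, and the smallest difference was 1 bp. In steps of 0.1, each step from 0.2 up held between 215 and 299 pairs, and the step from 0.1 to 0.2 held 116.

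The 3 least balanced pairs joined a peak over 8 kb to one close to the shortest length admitted. On chromosome 9, from 40991913 to 41007458, a peak of 720 bp stood 4869 bp from one of 9957 bp, a balance of 0.072. On chromosome 18, from 5166096 to 5177275, the peaks were 8359 and 640 bp (balance 0.077), and on chromosome 2, from 208855876 to 208869498, they were 673 and 8604 bp (0.078). The shorter peak lay on the left in 2 of the 3.

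Among the pairs covering over 10 kb, the 3 most balanced had ratios of 0.979, 0.979 and 0.978. The first was on chromosome 2 from 144249652 to 144263195, with peaks of 5217 and 5329 bp and a gap of 2998 bp. The second, on chromosome 9 from 118774830 to 118788790, had peaks of 5722 and 5845 bp and a gap of 2394 bp. The third was the pair on chromosome 6 with the most covered length. All 3 gaps were shorter than either peak beside them.

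No difference between the sides was detectable. The left peak, that with the lower coordinate, was the longer one in 1133 pairs and the right peak in 1117 (50.4% against 49.6%, interval 48.3 to 52.4 for the left). The left peak had a median length of 1775 bp (1705 to 1843) and the right one 1767 bp (1709 to 1841). Among the 896 pairs with a balance under 0.5 the left was longer in 49.9% (46.6 to 53.2), and among the 549 with a gap under 2 kb in 48.1% (43.8 to 52.4). The side is given by the coordinates and not by the direction of a gene, which was not used here.

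Lengths of partners were weakly related. Spearman's rank correlation of left and right length was 0.13 over the 2250 pairs, a description over pairs of 1 library that share local chromatin and the same length limits. By class of gap, the rank correlation was 0.28 among the 273 pairs under 1 kb apart, 0.15 among the 276 from 1 to 2 kb and 0.03 among the 300 at 10 kb or more. The classes between 2 and 10 kb gave values from 0.07 to 0.16. Median balance did not follow the same course. It was 0.566 (0.504 to 0.641) under 1 kb, 0.601 (0.558 to 0.658) from 1 to 2 kb and 0.569 (0.528 to 0.627) at 10 kb or more, and the intervals overlapped in all 7 classes. Over all pairs, the rank correlation of gap and balance was -0.002.

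**Figure D3:**
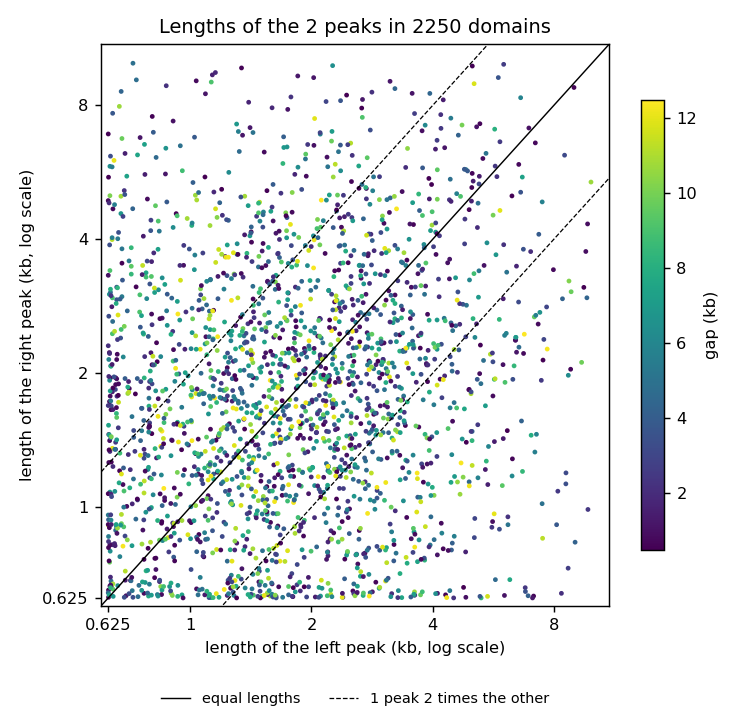
Length of the left peak (horizontal axis) and of the right peak (vertical axis), in kb on logarithmic axes, 1 point per pair, coloured by the gap in kb. The solid line marks equal lengths and the dashed lines a balance of 0.5; 896 of 2250 points lie outside the dashed lines, and 1133 lie below the solid line, where the left peak is longer.

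Balance moved with length, in part because the limits force it to. The rule admitted only peaks over 500 bp, and the shortest in the pairs was 625 bp. Pairs that covered under 2 kb thus could not be very unequal, and their median balance was 0.769 (0.735 to 0.798, n = 217). It was 0.583 (0.562 to 0.601) for pairs that covered 2 to 4 kb, 0.534 (0.507 to 0.573) for 4 to 6 kb and 0.455 (0.394 to 0.500) for 6 to 10 kb. Above 10 kb it was 0.546 (0.428 to 0.637, n = 84). In this class the upper limit of 10 kb on each peak bars more unequal combinations the longer the covered length. The least balanced pair of all (0.072) covered 10.7 kb and so lies in this class. The medians follow from the rule to an extent that was not measured.

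The limits of the rule also set which 2-peak domains were left out. Of 3404 domains of 2 peaks, 66.1% passed. Lengths in these domains had a floor of 500 bp, and 1094 of the domains held at least 1 peak of that length, 110 of them with both peaks at the floor. The next length above was 625 bp, that of 16 peaks in the pairs, and 351 pairs had a peak under 700 bp. At the upper limit, 66 domains held a peak of 10 kb or more, the shortest of them 10037 bp, against 9957 bp for the longest peak admitted. The 978 domains that joined 1 peak at the floor to a longer one inside the limits had a median gap of 4808 bp (4463 to 5181), an interval that includes the 4664 bp of the pairs. The 60 domains with a peak of 10 kb or more and none at the floor had a median gap of 3478 bp (2187 to 5919).

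Paired peaks were set beside neighbouring peaks in larger domains, taken under the same length limits and the same stitching distance. The median gap was lower in domains with more peaks. The median was 4664 bp in pairs, 4545 bp (4249 to 4864) in domains of 3 peaks, 4122 bp (3793 to 4431) in domains of 4, 3977 bp (3700 to 4185) in domains of 5 to 7 and 3616 bp (3295 to 3878) in domains of 8 or more. Pairs and domains of 3 overlapped in their intervals. Against all domains of 3 or more peaks together (4062 bp, 3937 to 4207, 7100 gaps), the median of the pairs was the higher one on 19 of 20 chromosomes. Peak lengths rose in the opposite direction, from a median of 1773 bp in pairs to 2158 bp in domains of 3 or more. With 1 library no test over samples can be made, and whether stitching itself has a part in the difference was not tested.

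The median balance of pairs was higher than that of neighbours in larger domains, which was 0.529 (0.518 to 0.540), against 0.575 in pairs, and the pairs had the higher value on 17 of 20 chromosomes. Neighbouring single peaks, each alone in its domain and so farther apart than the stitching distance, had a median balance of 0.570 (0.560 to 0.581, n = 4978), and pairs exceeded them on 11 of 20 chromosomes. The peaks of these groups differ in length. Their medians were 1773 bp in pairs, 2158 bp in larger domains and 1553 bp in neighbouring single peaks. The chromosomes share 1 library and are not replicates, so the counts of chromosomes are descriptions, with no test.

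At like length of the longer peak the order changed. Where the longer peak was between 2500 and 4000 bp, the median balance was 0.509 (0.487 to 0.532) in pairs, 0.515 (0.503 to 0.535) in larger domains and 0.454 (0.432 to 0.467) between neighbouring single peaks. Between 4000 and 6000 bp the values were 0.394 (0.361 to 0.448), 0.405 (0.388 to 0.424) and 0.340 (0.308 to 0.371), and from 6000 bp up they were 0.311 (0.265 to 0.345), 0.335 (0.314 to 0.353) and 0.231 (0.193 to 0.249). In these classes pairs lay close to larger domains. Their medians were above those of neighbouring single peaks, with intervals that did not overlap in the first and last of the 3 classes. In the class from 4000 to 6000 bp the intervals overlapped. With the longer peak held within a class, balance depends on the length of the shorter peak. Its median over all classes was 1415 bp in larger domains, 1235 bp in pairs and 1089 bp in neighbouring single peaks. The median balances of the 3 classes above had the same order. Whether partners are more alike than these lengths imply was not tested. Lengths were used to choose the pairs and were not matched further within a class, so these values are a description, with no test. Below 2500 bp the intervals of the 3 groups overlapped, with medians in pairs of 0.782 (longer peak under 1500 bp) and 0.618 (1500 to 2500 bp).

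**Figure D4:**
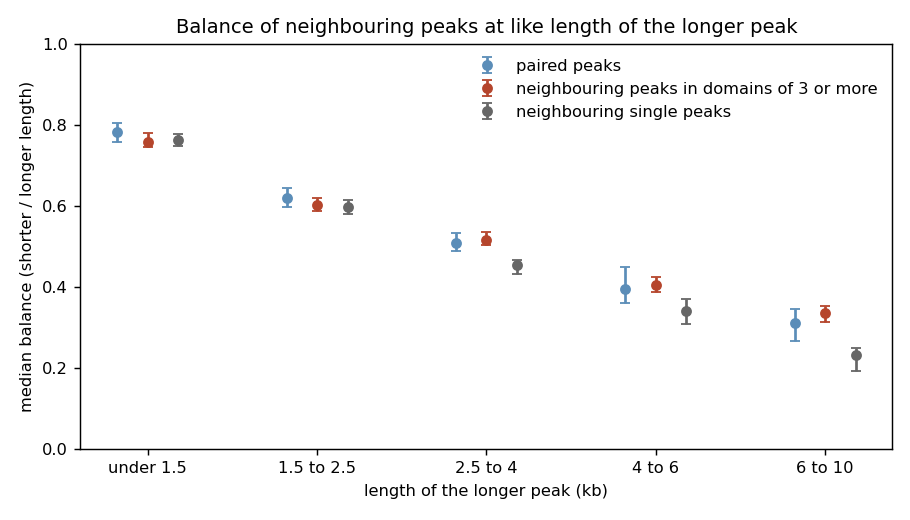
Median balance (shorter length divided by longer) in classes of the length of the longer peak (kb), for the pairs, for neighbouring peaks in domains of 3 or more peaks, and for neighbouring single peaks; bars are 95% order-statistic intervals. In the 3 classes from 2500 bp up, pairs have medians of 0.509, 0.394 and 0.311 and single peaks of 0.454, 0.340 and 0.231.

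Rank correlation of the lengths gave a similar order. It was 0.13 in pairs, 0.11 in larger domains and 0.04 over all neighbouring single peaks. By distance, it was -0.002 over the 1099 pairs of single peaks from the stitching distance to 25 kb apart. It was 0.03 from 25 to 50 kb apart, 0.05 from 50 to 100 kb and 0.06 from 100 to 1000 kb. These are descriptions over regions that share 1 library, and all of the correlations are weak.

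Pairs occurred on every numbered chromosome, from 47 on chromosome 20 to 283 on chromosome 1. As a share of the domains of a chromosome they made up 12.2% ± 1.17 (SD over chromosomes, n = 20). The lowest share was 9.53% on chromosome 20 (7.09 to 12.5) and the highest 14.1% on chromosome 12 (11.3 to 17.3). The interval of the chromosome included the share of all chromosomes together, 12.36%, in 19 of 20. The exception was chromosome 1, with 13.91% (12.44 to 15.49), where the lower bound lay only slightly above that share. Per Mb, pairs ranged from 0.557 on chromosome 4 to 1.41 on chromosome 12, but the density of all peaks also varies, and per 100 peaks the range was 4.70 on chromosome 20 to 8.09 on chromosome 18.

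Gap and balance varied little between chromosomes. The median gap was 4692 bp ± 514 (SD of the chromosome medians, n = 20), from 3912 bp on chromosome 13 (2521 to 6655) to 6087 bp on chromosome 18 (4430 to 7014). The median balance was 0.583 ± 0.040, from 0.513 on chromosome 7 (0.424 to 0.580) to 0.651 on chromosome 15 (0.563 to 0.715). For both measures the interval of each of the 20 chromosomes included the median of all pairs. The left peak was the longer one in over 50% of pairs on 10 chromosomes, with a range from 43.8% on chromosome 13 to 59.6% on chromosome 20.

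**Figure D5:**
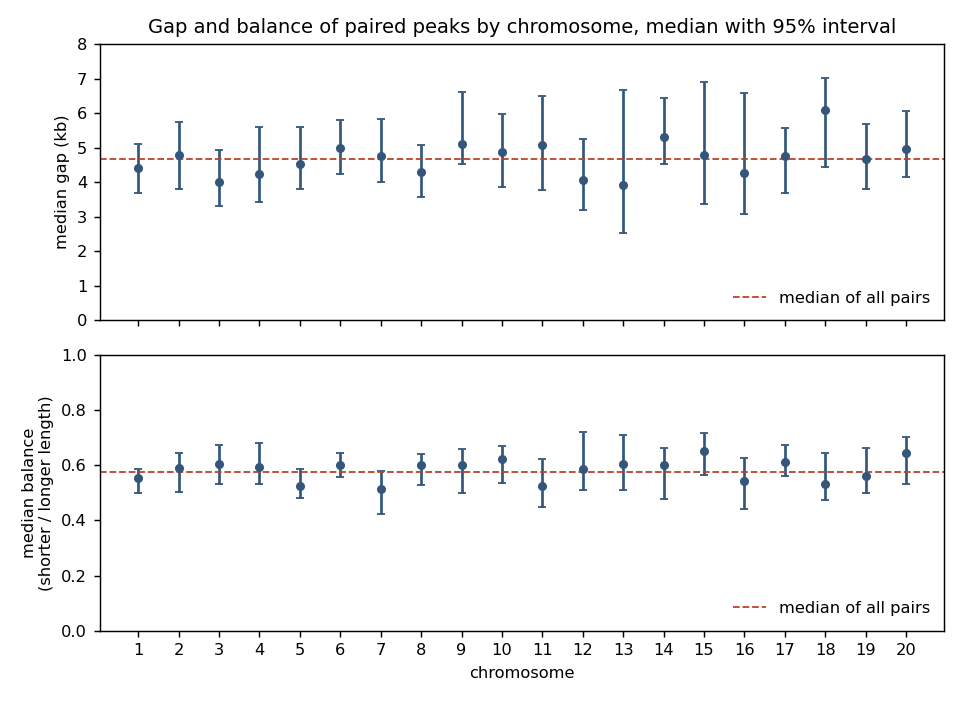
Median gap (kb, upper panel) and median balance (lower panel) of the pairs on each of the 20 numbered chromosomes, with 95% order-statistic intervals; dashed lines are the medians of all pairs, 4664 bp and 0.575. Every interval crosses its dashed line.

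The nearest other peak was closer to pairs than to single peaks at the median, and farther than from domains of 4 or more peaks. The single peaks and the other domains are taken here without length limits. The distance from a pair to the nearest other peak had a median of 23.6 kb (22.9 to 24.6), compared with 29.8 kb (29.3 to 30.4) for single peaks, 22.2 kb (21.7 to 23.1) for domains of 3 and 19.9 kb (19.2 to 20.4) for domains of 4 or more. The intervals of pairs and domains of 3 overlapped. All 3404 domains of 2 peaks, without the length limits, had a median of 24.2 kb (23.4 to 24.9). Stitching sets the minimum of this distance for all of them. Another peak lay within 25 kb of 53.4% of pairs (51.3 to 55.5), and on both sides of 12.8%. The share was 52.0% (50.3 to 53.7) for all domains of 2 peaks, 40.6% (39.8 to 41.5) for single peaks and 63.0% (61.3 to 64.7) for domains of 3 or more. No other peak lay within 100 kb of 129 pairs (5.73%, 4.81 to 6.78), against 6.52% of all domains of 2 peaks, 12.8% of single peaks and 2.53% of larger domains.

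The domains next to pairs were slightly less often single peaks than those next to any domain, and more often domains of 3 or more. There were 4498 sides with a further domain on the chromosome. Of these, 61.1% faced a single peak (59.6 to 62.5) and 19.7% a domain of 2 peaks. Another 19.3% faced one of 3 or more (18.1 to 20.5). Over the 36376 sides of all domains the shares were 64.1% (63.7 to 64.6), 18.7% and 17.1% (16.8 to 17.5). Sides of single peaks faced a domain of 3 or more in 14.7% and sides of such domains themselves in 24.1%. Consecutive domains on a chromosome were both pairs in some places: 233 runs held 2 pairs, 28 held 3, 5 held 4 and 1 held 5, while 1675 had no other of the 2250 pairs as the next domain on either side. Another pair was the next domain on 13.7% of the sides of pairs (12.7 to 14.7), near the 12.4% over the sides of all domains. The distance to the nearest other peak was at most weakly related to the form of the pair, with rank correlations of -0.007 for the gap, 0.05 for the balance and -0.13 for the covered length.

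The 3 most remote pairs stood over 1 Mb from any other peak on both sides. On chromosome 11, from 23870394 to 23872929, 2 short peaks of 634 and 668 bp lay 1234 bp apart, with the next peaks 2907 kb to the left and 3957 kb to the right. On chromosome 13, from 66991107 to 66994432, peaks of 1497 and 1144 bp lay 685 bp apart and the next peaks were 1435 and 5581 kb away. On chromosome 1, from 154719722 to 154732156, peaks of 4096 and 1471 bp had a gap of 6868 bp and neighbours at 1402 and 1970 kb. The gaps of the first 2 of these pairs lay below the lower quartile of all gaps, 2061 bp.

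The rows of the deposited list are not in genomic order, and the labels do not say what orders them. Partners were far apart in the file, at a median distance of 8999 rows of 32996, and no pair sat on consecutive rows. Peaks of pairs made up between 13.3 and 14.6% of the numbered-chromosome peaks in each of 10 equal blocks of rows. Their median length was 2054 bp in the first block, 2158 bp in the next and 1493 bp in the last, and the rank correlation of row number and length was -0.17 over the 4500 peaks.

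Within a pair, the longer peak came earlier in the file in 56.4% (54.4 to 58.5), a measure that the rule did not use. The share was 61.7% (58.4 to 64.9) among the 896 pairs with a balance under 0.5, 54.1% (50.7 to 57.6) from 0.5 to 0.8, and 51.1% (46.7 to 55.4) among the 521 pairs at 0.8 or more. The row order thus went with length inside pairs where the lengths were unequal, while for nearly equal partners the interval included 50%.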

How the data were processed

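The data were 1 H3K27ac ChIP library and 1 input library from pooled rat sciatic nerve, for which the authors deposited a single list of peak coordinates, in base pairs, with no score, signal or count. CASAVA 1.8.2, Bowtie and HOMER are named, per the submitters' processing notes. Not given in the sources used here are the settings, the use of the input and the build. The only gene and promoter tables at hand were of the assembly GRCr8. On 13 of the 20 numbered chromosomes the last peak lay beyond its last gene, by up to 63.8 Mb, so coordinates were not converted, and no gene name or sequence was taken from it.

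Peaks were stitched, measured and summarised with pandas 2.3.3 and numpy 2.4.6 in Python 3.11.15; intervals came from scipy 1.17.1 and plots from matplotlib 3.10.9. The 791 peaks on X were left out by the rule. Starts were taken as BED starts. The stitching step was tested on simulated data, where all of the placed pairs were recovered. With 1 library no test between groups was made. The regions named were the 10 pairs with the most covered length, the 3 with the shortest and widest gaps, the 3 least balanced, the 3 most balanced over 10 kb covered and the 3 most remote. The members and measures were chosen with earlier results of these data known. Alternatives changed the stitching distance, the length limits and the chromosomes used.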

Additional observations from a re-analysis of the deposited data

How the results depend on the processing

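Of 45 recomputed values (5 measures under 9 other settings), 37 stayed within the 95% interval of the value reported, or within 1.5 times it for the number of pairs. Several settings kept most of the same pairs, such as adding X (2300 pairs) or leaving out chromosome 10 (2110 pairs). The recomputed values are thus not independent of those reported. The median gap moved with the stitching distance, to 2132 bp within 5 kb, 3923 bp within 10 kb and 6586 bp within 20 kb. This distance caps the gap by construction. Requiring both peaks over 1000 bp left 1457 pairs with a median balance of 0.647. Without the lower limit, which adds peaks at the floor, the median balance was 0.509 and the rank correlation of the 2 lengths was 0.093. With both peaks under 5000 bp the median balance was 0.605. The share of pairs with the longer peak on the left stayed between 49.8 and 51.2% under all 9 settings, taken over pairs of unequal length. Adding X or leaving out chromosome 10 moved none of the 5 measures beyond its interval. No paired analysis was possible because there is 1 library per group. With 1 library there was no replicate to leave out, and how far read depth limits short or weak peaks is not known.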
